A study of Mus musculus with 68 samples.

Results

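The late and the early stage of prostate tumours were compared in TRAMP mice that carry intact genes for SPARC and for osteopontin (OPN). The comparison used 14 of the 68 arrays of the series. Late TRAMP was represented by 7 animals (codes T1 to T7), of which T1 was 25 weeks old and the other 6 were 24 weeks old, and early TRAMP by 7 animals of 16 weeks (T8 to T14). The members were taken from the genotype label TRAMP +/- and the age in the labels, so no measured value chose them. For reference the same ages were read in OPN-null TRAMP (3 late animals of 24 to 27 weeks and 6 early ones of 16 to 17 weeks), in SPARC-null TRAMP (9 late animals of 24 to 29 weeks and 6 early ones of 18 to 19 weeks) and in wild-type mice without the transgene (6 late animals of 24 weeks and 4 early ones of 16 weeks). All samples carry the tissue label of prostate tumours, the nontransgenic ones included. The series text gives ages of 18 and 30 weeks, which differ from the sample labels used here, and it speaks of adenocarcinoma and neuroendocrine carcinoma, but no sample label states a tumour type, so each age group may hold more than 1 kind of tumour.

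TRAMP mice express the SV40 tumour antigens from a rat probasin promoter, which is active in prostate epithelium and needs androgen. Large T antigen binds the retinoblastoma proteins and p53, which releases E2F-driven genes of DNA replication and mitosis. The model is known for progression with age from epithelial hyperplasia to adenocarcinoma, and for neuroendocrine carcinomas in some animals. In such bulk tissue, fewer cells of a type and less RNA per cell cannot be told apart.

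No probe set passed the adjustment between late and early TRAMP tumours. Of 22206 probe sets tested with limma, 0 were higher (0%) and 0 were lower (0%) in late tumours at an adjusted p under 0.05, and the lowest adjusted p was 0.927. Before adjustment, 566 probe sets had a p under 0.05 with a higher mean in late tumours (2.55%) and 497 with a lower one (2.24%), together 1063 (4.79%) where 1110.3 are due by chance. Without the early arrays T9 and T10, which are described below, this count was 580 (2.61%). The median difference was -0.0019 log2 units, and 49.4% of probe sets had a positive one. The median standard error was 0.12 log2 units, and the 95% interval of the difference lay within 1 log2 unit of 0 for 98% of probe sets and within 0.5 for 80.7%. A mean difference of 1 log2 unit or more was seen for 18 probe sets, 4 of them higher and 14 lower in late tumours. Every gene value given below for late against early TRAMP therefore describes these 14 animals, and none of these differences passed the adjustment (adjusted p of at least 0.927 for each named gene, limma).

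Quality differed between arrays. It was measured by how well an array separates its positive from its negative control probe sets (the area under the curve, AUC, where 1 is complete separation), which was 0.731 ± 0.0187 in late and 0.726 ± 0.0317 in early tumours (SD, n = 7 each). T10 had the lowest value at 0.674, with 0.707 for T9 and 0.706 for T8. The first principal component of the 14 arrays held 46% of the variance and followed the AUC (Pearson r = -0.947 with a permutation p of 1e-05 and Spearman rho = -0.938 with a permutation p of 1e-05, which is as low as these permutations go; adjusted p = 5e-05 for both; r = -0.94 within late and -0.974 within early tumours; r = -0.899 without T10 and T13). T10 and T9 lay at its far end, so values without these 2 arrays are given beside many results. Without them the median difference of 14 of 44 gene lists turned sign, and that over all probe sets was 0.01, with 11846 of 22206 positive. The mean correlation of an array with the other 13 was 0.895 for T10 and at least 0.944 for each other array.

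The transgene and the cell cycle were read first, since T antigen is the product of the first and acts on the second. The promoters of 2 genes used as readouts are shown because Pbsn, the mouse gene of the promoter type that drives the transgene, stands for androgen action and Mki67 for proliferation. Both are RefSeq sequences of build GRCm38.p6, from 250 bases before to 50 bases after the gene's start, on the minus strand, 5′ to 3′. Capitals mark AGAACA (or TGTTCT on the other strand), the core hexamer of the androgen response element, in Pbsn and TTTGAA (or TTCAAA), the cell cycle homology region, in Mki67.
Pbsn, chrX:77853451-77853750: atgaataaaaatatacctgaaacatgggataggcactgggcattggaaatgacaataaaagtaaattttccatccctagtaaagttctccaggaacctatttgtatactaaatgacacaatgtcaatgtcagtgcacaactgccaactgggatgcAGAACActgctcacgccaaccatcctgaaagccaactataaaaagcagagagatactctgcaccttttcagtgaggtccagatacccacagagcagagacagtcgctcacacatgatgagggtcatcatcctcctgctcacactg
Mki67, chr7:135716330-135716629: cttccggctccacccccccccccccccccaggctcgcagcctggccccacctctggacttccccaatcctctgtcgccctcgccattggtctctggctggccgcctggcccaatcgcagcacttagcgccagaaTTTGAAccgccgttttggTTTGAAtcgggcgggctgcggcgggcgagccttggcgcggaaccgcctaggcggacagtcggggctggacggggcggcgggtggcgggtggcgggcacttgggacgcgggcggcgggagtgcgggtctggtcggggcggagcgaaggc
The Pbsn match starts 95 bases before the gene's start, and 19% of 32851 promoters of that length hold these letters. Mki67 has 2 matches, 116 and 98 bases before the start, and 17.9% of promoters hold 1 or more.

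The SV40 signal was higher on average in late tumours, and the difference did not pass an exact test. Averaged over the 6 SV40 control probe sets, the signal was 7.15, 7.02, 7.70, 7.16, 7.22, 7.20 and 7.66 log2 units in late tumours T1 to T7, against 7.18, 6.51, 6.38, 7.47, 7.31, 6.09 and 6.82 in early tumours T8 to T14. No late tumour was below 7.02, whereas 4 early tumours (T9, T10, T13 and T14) were, and the ranges overlapped. The means were 7.30 ± 0.27 late and 6.82 ± 0.52 early (SD, n = 7 each), a difference of 0.48 (2-sided exact permutation test over 3432 splits, p = 0.0519). It was 0.33 without T9 and T10 (exact p = 0.201). Single SV40 probe sets had differences between 0.27 and 0.69 (exact permutation tests, adjusted p between 0.0559 and 0.279). The 29 nontransgenic arrays with a group did not exceed 5.52. Which SV40 sequence they detect is not stated in the files.

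Mki67, the proliferation marker Ki-67, gave 7.30, 7.06, 7.38, 6.90, 7.46, 7.24 and 7.76 in late tumours, against 7.13, 6.57, 6.42, 7.27, 7.32, 6.66 and 6.60 in early ones. The 4 early tumours with the lowest SV40 signal were also the 4 lowest in Mki67. The difference between ages was 0.45 (SE 0.24), and both means, 7.30 and 6.85, were above the 5.63 and 5.51 of late and early nontransgenic wild-type tissue. Across the 14 tumours SV40 signal and Mki67 went together (Pearson r = 0.873, permutation p = 5e-05, adjusted p = 0.000125; Spearman rho = 0.873, permutation p = 9e-05, adjusted p = 0.000225, over 5 relations computed). The relation held within late (r = 0.701) and within early tumours (r = 0.877), and r was 0.863 without T13 and T10. Between AUC and SV40 signal r was 0.228 (permutation p = 0.434, adjusted p = 0.542), with 0.709 within late and 0.0529 within early tumours. It was 0.537 without T10 and T13. Between AUC and Prim1, described below, r was 0.345 (permutation p = 0.23, adjusted p = 0.383), with 0.0304 within late and 0.526 within early tumours. The part of array quality in these readouts was not tested. Pbsn did not follow the SV40 signal (r = 0.0614, permutation p = 0.837, adjusted p = 0.837; rho = -0.011, permutation p = 0.976, adjusted p = 0.976; r = 0.135 within late and -0.0145 within early tumours; r = 0.113 without T13 and T10). It had 10.50, 11.09, 11.03, 7.04, 10.95, 11.49 and 10.24 log2 units in late tumours, against 8.61, 9.89, 8.23, 10.88, 10.72, 11.77 and 11.21 in early ones. T4 stood alone at the low end of the late group, and T8 and T10 were the lowest early tumours. The difference of 0.15 (SE 0.48) turned to -0.30 without T9 and T10.

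**Figure D1:**
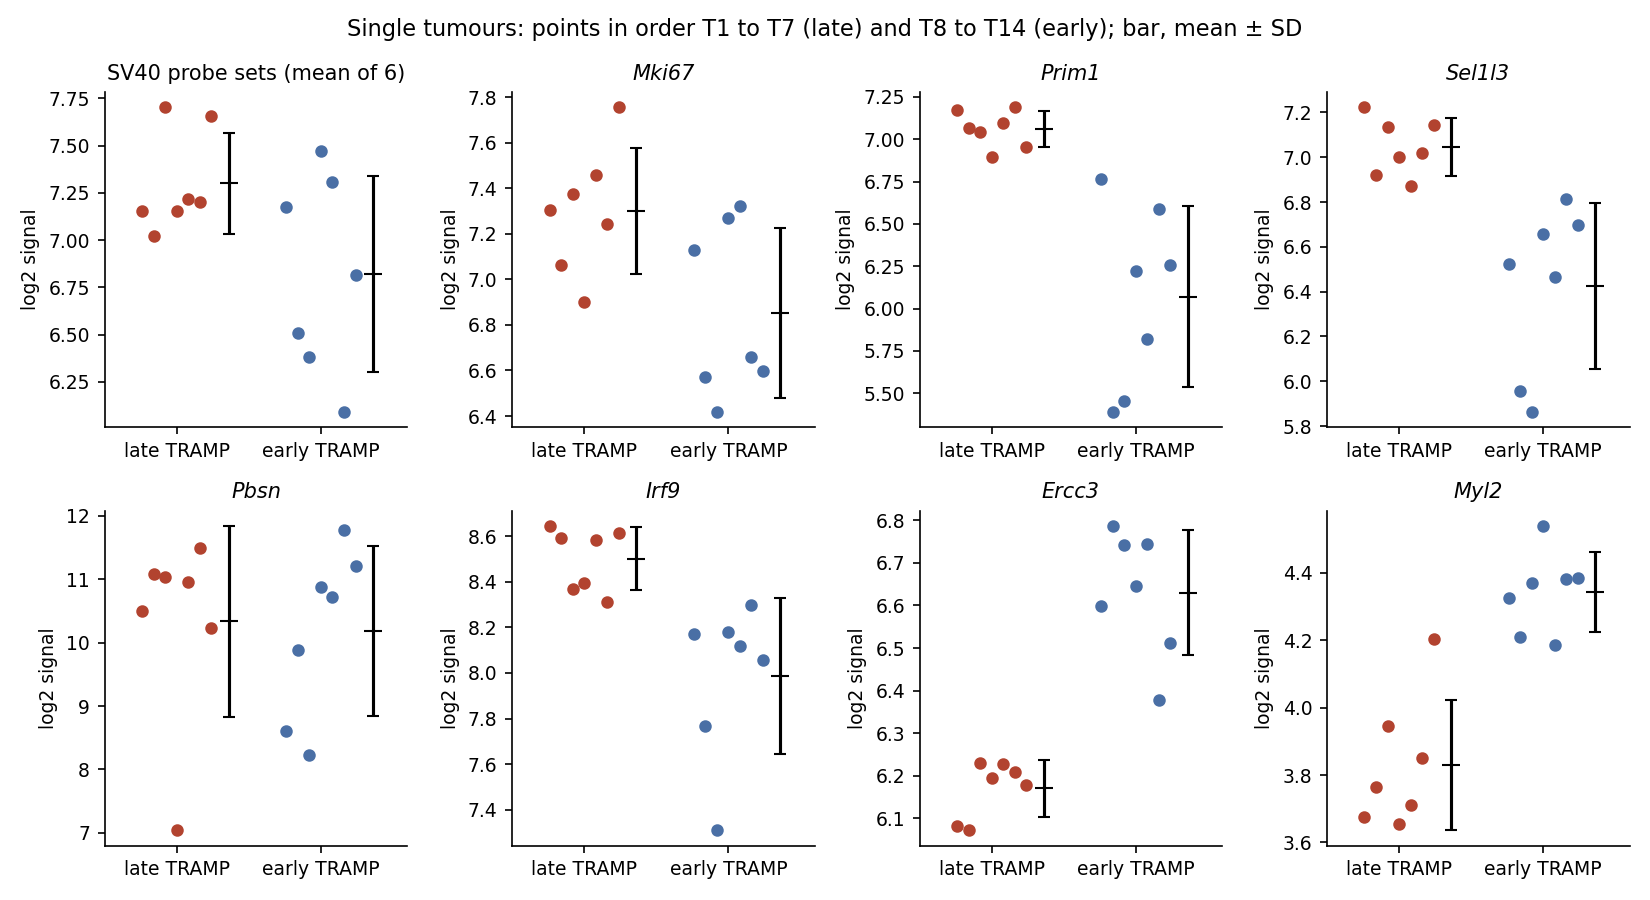
Log2 signal of 8 readouts in single tumours, late TRAMP (red) left of early TRAMP (blue), with 7 animals each and the mean ± SD as a bar. Prim1, Sel1l3, Irf9 and Ercc3 have ranges that do not overlap, while SV40, Mki67, Pbsn and Myl2 overlap.

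Among genes of DNA replication, Prim1, the catalytic subunit of DNA primase, showed the widest gap. It was 7.17, 7.06, 7.04, 6.90, 7.10, 7.19 and 6.95 in late tumours, against 6.76, 5.39, 5.45, 6.22, 5.82, 6.59 and 6.26 in early tumours. All late tumours lay above all early ones and close together (SD 0.11 late and 0.54 early, n = 7 each), with a difference of 0.99 (SE 0.29, 95% interval 0.39 to 1.59). Nontransgenic wild-type tissue had 5.36 late and 5.46 early, near the 2 lowest early tumours, T9 and T10. The age difference of Prim1 was 0.93 (SE 0.29) in SPARC-null TRAMP and 1.0009 (SE 0.39) in OPN-null TRAMP, neither of which was called (limma, adjusted p = 0.126 and 0.06).

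Of 28 measured genes of DNA replication and G1/S, 22 had a positive difference, with a median of 0.14 against -0.0019 over all probe sets; 4 were higher and 1 lower at an unadjusted p under 0.05. Beside Prim1 these were Ccne2, a cyclin E, at 0.59 (SE 0.25), Mcm2 of the replicative helicase at 0.44 (SE 0.17), Mcm6 of the same helicase at 0.38 (SE 0.18), and Orc1 of the origin recognition complex at -0.25 (SE 0.11). Mcm2 was above 8.1 in each late tumour but T5, and below 8.1 in each early tumour but T8, the highest of all at 8.70. Of 27 genes of G2 and mitosis, 18 were positive (median 0.08; 5 higher and 0 lower at an unadjusted p under 0.05). The ubiquitin-conjugating enzyme of mitotic exit Ube2c differed by 0.50 (SE 0.20), the centromeric histone Cenpa by 0.31 (SE 0.11), cyclin A (Ccna2) by 0.30 (SE 0.14) and the anaphase activator Cdc20 by 0.29 (SE 0.13). Ccna2 ran between 6.99 and 7.39 in late tumours and between 6.36 and 7.42 in early ones, so that the early group held both the highest and the lowest values. Without T9 and T10 the medians were 0.09 for both lists, with 20 and 21 positive genes, and 2 genes of each list were higher at an unadjusted p under 0.05.

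In the list of Rb family members, cyclins D and CDK inhibitors, 11 of 14 genes were positive (median 0.08). Rbl1, the Rb-related p107, differed by 0.48 (SE 0.19), and Cdkn2a, which encodes p16 and p19Arf, by 0.33 (SE 0.11). These were the 2 genes of the list that were higher at an unadjusted p under 0.05. Without T9 and T10 there were 0 such genes, with 11 positive and a median of 0.04. Of 16 p53 target genes 13 were positive (median 0.07), among them Phlda3, which inhibits Akt, with 4.90 to 5.16 in late tumours against 4.33 to 4.86 in early ones. The median correlation with the SV40 signal over the 14 tumours was 0.44 for the DNA replication list and 0.32 for the G2 and mitosis list, against -0.004 over all probe sets. Such values were not particular to the cell cycle. The median was 0.50 for epithelial progenitor genes, 0.36 for epithelial adhesion genes and 0.31 for MYC and ribosome biogenesis. Other lists had negative medians, as far as -0.38 for seminal vesicle genes. These medians are descriptions across genes that share the same 14 arrays.

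Genes with ranges apart were few. Of all probe sets, 7 lay wholly above in late tumours (0.0315%) and 5 wholly below (0.0225%), and 10 of these have a named gene. For a given probe set, chance alone puts the groups wholly apart, in either direction, with a probability of 0.000583 (3432 splits of 7 against 7). The counts seen are near that share. Late values were above early ones for Sel1l3, Pot1b, Irf9, Zfyve26, Prim1 and Phlda3. Sel1l3, a gene of a membrane protein with Sel1 repeats, had 6.87 to 7.22 in late and 5.86 to 6.81 in early tumours, a difference of 0.62 (SE 0.15). Pot1b, a telomere-binding protein, had 5.36 to 5.75 in late and 4.35 to 5.29 in early tumours, a difference of 0.57 (SE 0.15). Irf9, a transcription factor of interferon signalling, had 8.31 to 8.65 in late and 7.31 to 8.30 in early tumours, where T10 and T9 were the lowest. Late values were below early ones for Ercc3, Zfp97, Zcchc10 and Cyp3a41b. Ercc3, the XPB helicase of transcription factor TFIIH, was 6.08, 6.07, 6.23, 6.19, 6.23, 6.21 and 6.18 in late tumours, against 6.60, 6.79, 6.74, 6.64, 6.75, 6.38 and 6.51 in early ones. The late tumours lay close together and below every early tumour, and the difference was -0.46 (SE 0.11).

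Among the genes of smallest p, those with a higher late mean included Klhl18, a substrate adaptor of a cullin ubiquitin ligase, with a difference of 0.38 (SE 0.09), Hnrnpul1, a nuclear RNA-binding protein, with 0.42 (SE 0.11), and Cdc16, a subunit of the anaphase-promoting complex, with 0.32 (SE 0.09). Ulbp1, a ligand of the natural killer receptor NKG2D, had 6.91, 6.57, 6.28, 6.58, 6.30, 6.55 and 6.78 in late tumours, against 5.91, 5.71, 5.78, 6.38, 5.80, 5.54 and 5.52 in early ones. T11 was the 1 early tumour within the late range, and the difference was 0.76 (SE 0.22). Slfn2, a schlafen gene of lymphoid and myeloid cells, had 0.28 (SE 0.08), the macrophage folate receptor Folr2 0.39 (SE 0.11), Tex261 0.42 (SE 0.12) and the sulfatase gene Arsi 0.27 (SE 0.08). On the lower side Myl2, a regulatory myosin light chain of slow and cardiac muscle, had 3.68, 3.77, 3.94, 3.65, 3.71, 3.85 and 4.20 in late tumours, against 4.33, 4.21, 4.37, 4.54, 4.18, 4.38 and 4.38 in early ones. Of early tumours T12 alone lay within the late range, through T7, at a signal low on this scale, and the difference was -0.51 (SE 0.12). The matrix proteoglycan Prelp differed by -0.39 (SE 0.10), Mustn1, a nuclear protein of the musculoskeletal system, by -0.34 (SE 0.09), the aldehyde dehydrogenase Aldh3b2 by -0.39 (SE 0.11) and the peripheral myelin protein Pmp2 by -0.30 (SE 0.09). Paxx of DNA end joining had -0.48 (SE 0.14), Asphd2 -0.34 (SE 0.10), the ubiquitin-conjugating enzyme gene Ube2u -0.28 (SE 0.08) and AY074887 -0.41 (SE 0.13).

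Luminal epithelial genes gave small differences that depended on T9 and T10, and none was called. Of 22 androgen-regulated or luminal genes, 17 were positive (median 0.09; 1 higher and 0 lower at an unadjusted p under 0.05), and 13 without T9 and T10 (median 0.01). Pigr, the polymeric immunoglobulin receptor of secretory epithelium, was 9.51, 8.80, 11.10, 10.59, 10.01, 8.30 and 10.06 in late tumours, against 8.41, 8.65, 7.50, 9.40, 10.01, 7.21 and 9.70 in early ones. The groups overlapped over most of their range, with T10 and T13 lowest, and the difference was 1.07 (SE 0.41). The beta-defensin Defb50 differed by 0.51 (SE 0.33) and the membrane protease Tmprss2 by 0.22 (SE 0.16). Epithelial adhesion genes were positive in 14 of 16 cases (median 0.14), with 0.47 (SE 0.28) for Epcam and 0.26 (SE 0.19) for E-cadherin (Cdh1); without T9 and T10 the count was 10 and the median 0.02. Of 10 epithelial progenitor genes 8 were positive (median 0.20), and 7 without T9 and T10 (median 0.07), with 0.37 (SE 0.18) for the aldehyde dehydrogenase Aldh1a1 and 0.69 (SE 0.41) for clusterin (Clu). Basal epithelium genes were positive in 4 of 11 cases (median -0.04) and in 7 without T9 and T10 (median 0.01), and the basal transcription factor Trp63 had -0.29 (SE 0.13). The unfolded protein response list had 13 positive genes of 16 and a median of 0.15, and 5 positive genes and a median of -0.04 without T9 and T10. Atf4, its translationally induced transcription factor, had 11.09 to 11.58 in late and 9.25 to 11.73 in early tumours, and T10 was the lowest.

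**Figure D2:**
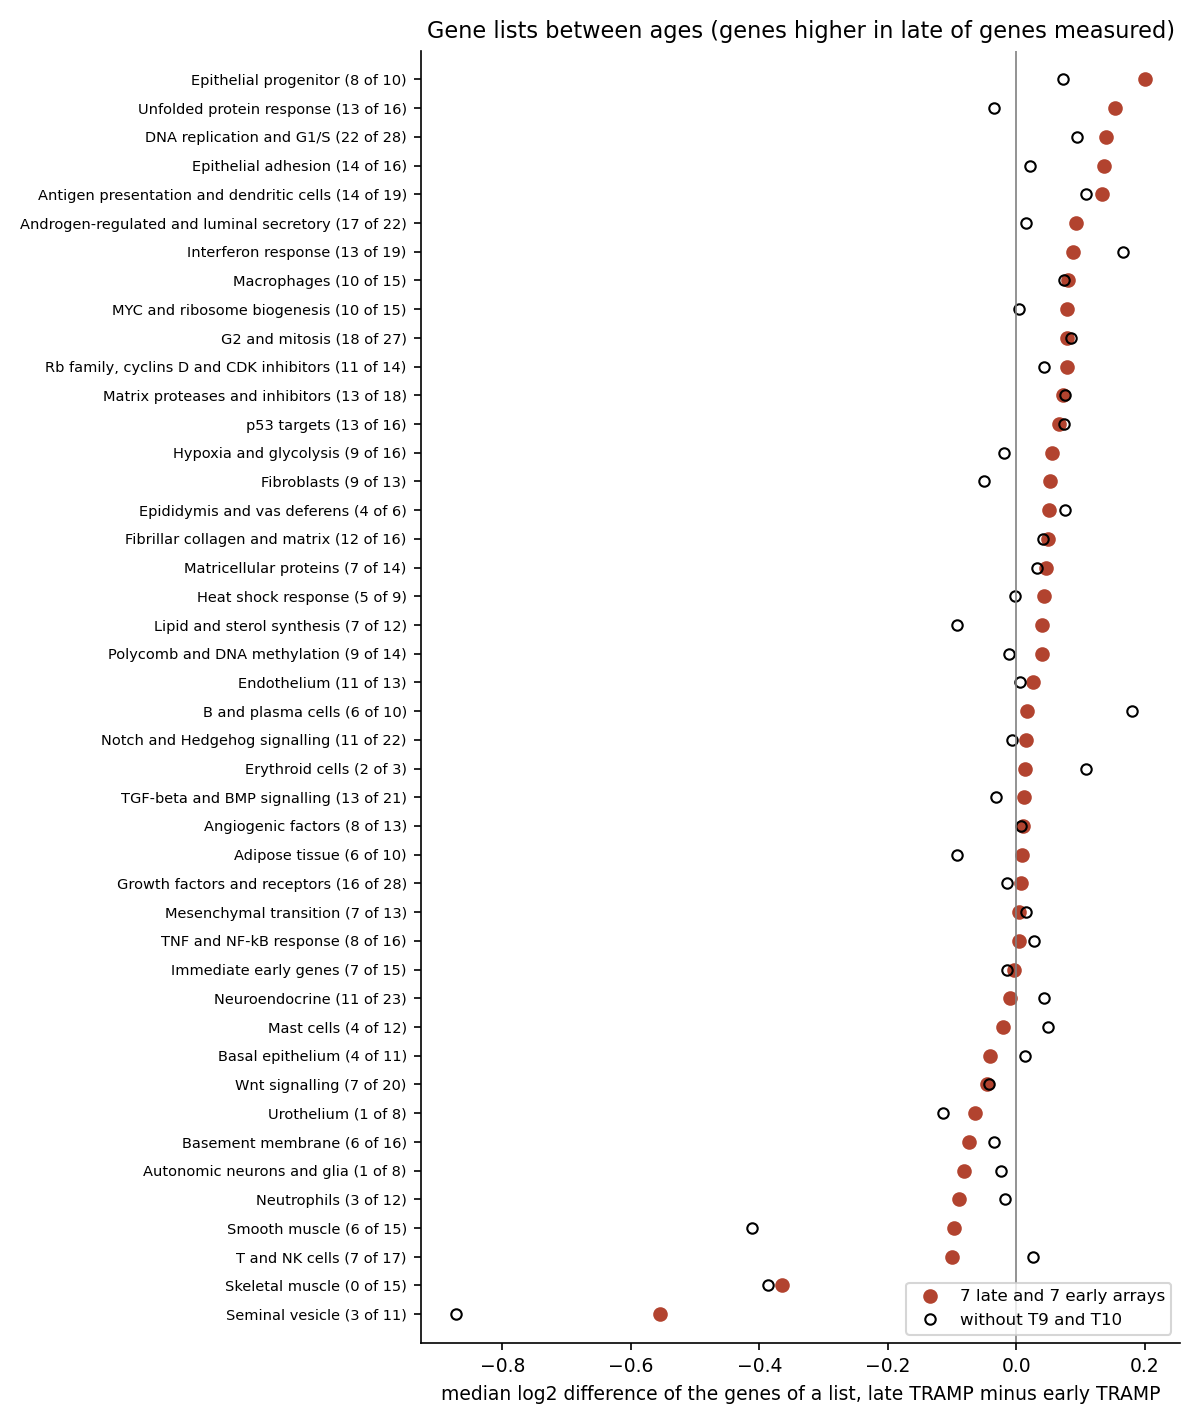
Median log2 difference, late minus early TRAMP, of the genes of each of 44 lists, with all 14 arrays (filled) and without T9 and T10 (open). The list names carry the number of genes with a positive difference of those measured. With all arrays Seminal vesicle and Skeletal muscle lie farthest below 0, without T9 and T10 Seminal vesicle and Smooth muscle do, and 14 lists change sign between the settings.

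Neuroendocrine genes did not separate the ages. Of 23 measured genes 11 were positive and 12 negative, the median was -0.01 (13 positive and a median of 0.04 without T9 and T10), and 0 passed an unadjusted p under 0.05. The 95% interval of the difference lay within 1 log2 unit of 0 for all 23. The largest differences were 0.22 (SE 0.15) for the neuronal RNA-binding protein Elavl3 and -0.26 (SE 0.17) for neuron-specific enolase (Eno2), and the stem cell and neural factor Sox2 had 0.16 (SE 0.16). List scores, the mean deviation of the genes from their mean over the 14 arrays, ran from -0.18 to 0.20 in late and from -0.20 to 0.14 in early tumours. The highest score was that of T5, followed by T10 at 0.14. T5 was the highest of the 14 tumours for 6 of the 23 genes and T10 for 7. T5 had the highest Elavl3 of the 14 tumours at 5.75, against 4.28 to 5.22 in the other late tumours and 4.31 to 5.04 in early ones.

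T5 stood apart for genes that mark late OPN-null tumours. The 50 named genes with the largest called age difference within OPN-null TRAMP (log2 1.82 to 5.39), a ranking in which no TRAMP array takes part, were read in each TRAMP tumour. Their mean deviation was 0.43 in T5, between -0.12 and 0.07 in the other late tumours and between -0.20 and 0.08 in early ones, and T5 was the highest of the 14 tumours for 18 of the 50 genes. The mitochondrial carrier gene Slc25a21 had 5.76 in T5, 3.61 to 3.98 in the other late tumours and 3.71 to 4.23 in early tumours, while the 3 late OPN-null tumours had 8.80 to 9.91. The neuronal RNA-binding protein gene Elavl4 had 5.49 in T5, 4.46 to 4.95 in the other late tumours and 4.38 to 4.95 in early ones, against 8.19 to 9.84 in late OPN-null tumours. For Slc25a21, Elavl4 and Elavl3 the TRAMP tumours other than T5 lay below 5.4, the median of the negative control means, and T5 had 5.49 to 5.76. The matricellular gene Ccn3 had 8.11 in T5 and the imprinted non-coding RNA Ipw 7.83, each the highest of the 14 TRAMP tumours. T5 kept a Pbsn of 10.95, so its luminal readout was not low. T4, with the lowest late Pbsn, had 3.61 for Slc25a21, the lowest of the 14.

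Stromal and matrix genes gave small differences of both signs. Fibrillar collagen and matrix genes were positive in 12 of 16 cases (median 0.05), basement membrane genes in 6 of 16 (median -0.07) and fibroblast genes in 9 of 13 (median 0.05). Without T9 and T10 the fibroblast list had 5 positive genes and a median of -0.05. Sparc itself had 6.30, 6.30, 7.21, 6.61, 6.40, 6.48 and 6.70 in late tumours, against 6.84, 6.67, 6.18, 6.62, 6.75, 7.35 and 6.71 in early ones. The groups overlapped, and the difference was -0.16 (SE 0.14, 95% interval -0.44 to 0.12). Of 14 matricellular genes 7 were positive, with -0.36 (SE 0.13) for the thrombospondin Thbs2 and 0.21 (SE 0.08) for the connective tissue growth factor Ccn2. Of 18 matrix proteases and inhibitors 13 were positive, led by matrilysin (Mmp7), an epithelial protease, with 8.88 to 10.72 in late and 6.68 to 9.67 in early tumours and a difference of 0.90 (SE 0.36). The fibroblast marker Pi16 had -0.36 (SE 0.15). In the mesenchymal transition list 7 of 13 genes were positive (median 0.00), with 0.47 (SE 0.18) for the mesenchymal homeobox gene Prrx1 and 0.30 (SE 0.13) for Twist2. Of 13 endothelial genes 11 were positive with a median of 0.03, and 8 without T9 and T10 (median 0.01). The endothelial transcription factor Erg had 0.27 (SE 0.12).

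Immune lists gave small differences. Antigen presentation and dendritic cell genes were positive in 14 of 19 cases (median 0.13; 3 higher and 0 lower at an unadjusted p under 0.05), and in 18 without T9 and T10 (median 0.11). The immunoproteasome subunit Psmb9 had 7.11 to 8.19 in late and 6.87 to 7.64 in early tumours, a difference of 0.41 (SE 0.19), and the MHC class II chain H2-Eb1 one of 0.36 (SE 0.15). Their list score ran from -0.02 to 0.16 in late and from -0.16 to -0.01 in early tumours. Interferon response genes were positive in 13 of 19 cases (median 0.09; 4 higher and 0 lower), and in 16 without T9 and T10 (median 0.17). The master regulator Irf7 differed by 0.40 (SE 0.14), Stat2 by 0.43 (SE 0.16) and the guanylate-binding protein Gbp3 by 0.54 (SE 0.25). Gbp3 was 6.19 to 7.13 in late tumours, while T8, T9 and T10 had 5.25 to 5.45 and the other 4 early tumours 6.50 to 6.93. These 3 early arrays are those of the lowest AUC, and their part in the difference was not tested. Macrophage genes were positive in 10 of 15 cases (median 0.08), with 0.25 (SE 0.16) for the complement gene C1qa. T and NK cell genes were positive in 7 of 17 cases (median -0.10), and in 12 without T9 and T10 (median 0.03), with 0.22 (SE 0.09) for the T cell adhesion molecule Cd2. Neutrophil genes were positive in 3 of 12 cases (median -0.09), and in 6 without T9 and T10 (median -0.02), with -0.24 (SE 0.09) for lactoferrin (Ltf) and -0.33 (SE 0.16) for myeloperoxidase (Mpo).

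The macrophage mannose receptor Mrc1 was 11.08 in T9 and 12.12 in T10, 6.37 to 7.07 in the other early tumours and 5.95 to 6.87 in late ones. Its difference of -1.56 (SE 0.80) rests on these 2 arrays. Of the other 65 arrays with a group, 5 exceeded 8.5, with an AUC between 0.678 and 0.74, and 3 of these were from transgenic mice.

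Genes of neighbouring tissues were among those with the widest spread between animals of one age. Seminal vesicle genes were positive in 3 of 11 cases (median -0.55), and their list score ran from -2.05 to 3.80 in late and from -1.88 to 4.66 in early tumours. The seminal vesicle secretory genes Sva and Svs6 were high in T6 (10.84 and 11.67) among late tumours and in T13 (11.99 and 12.39) and T8 (7.90 and 8.52) among early ones. Sva was at most 3.44 in the other late tumours. Svs5 had 11.65, 12.03, 6.43, 5.24, 12.34, 13.19 and 12.22 in late tumours, against 12.34, 6.43, 11.23, 5.24, 12.57, 13.30 and 6.05 in early ones, so that both ages held high and low tumours. Skeletal muscle genes were negative in 15 of 15 cases (median -0.36; 1 lower at an unadjusted p under 0.05), with muscle creatine kinase (Ckm) at -0.42 (SE 0.19). The fast myosin gene Myh4 was 7.77, 4.97, 10.99, 8.96, 9.41, 4.66 and 5.14 in late tumours, against 8.25, 10.52, 5.90, 10.63, 10.75, 5.70 and 10.53 in early ones. It exceeded 10 in 1 late tumour and in 4 early ones, and its difference was -1.48 (SE 1.07). The list score ran from -1.02 to 1.13 in late and from -0.98 to 1.13 in early tumours. The part of this tissue in the values of Myl2 and Mustn1 was not tested. Smooth muscle genes were positive in 6 of 15 cases (median -0.10), and in 1 of 15 without T9 and T10 (median -0.41), with desmin (Des) at -0.52 (SE 0.29) and the smooth muscle coactivator Myocd at -0.25 (SE 0.11). The lacrimal and salivary type genes Prol1 and Smr2 were high in T3 and T5 among late tumours and in T8, T9 and T11 among early ones.

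**Figure D3:**
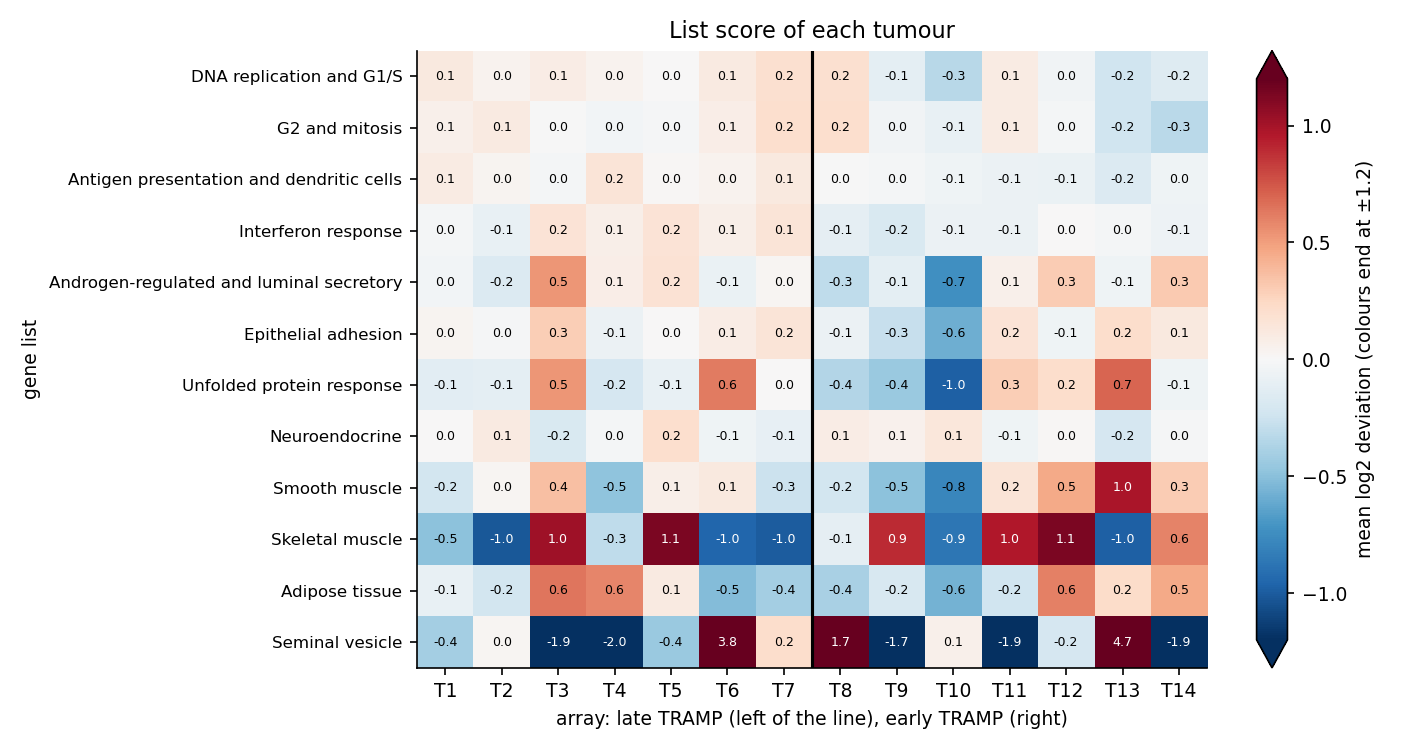
Score of 12 gene lists (mean log2 deviation of the genes from their mean over the 14 arrays) in each late TRAMP tumour (left of the line) and early TRAMP tumour (right). Skeletal muscle and Seminal vesicle scores swing by over 2 log2 units within each age, and T10 is the lowest tumour for luminal, epithelial adhesion and unfolded protein response genes.

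Signalling and stress lists stayed near 0. Medians were 0.01 for TGF-beta and BMP signalling (13 of 21 positive), -0.05 for Wnt signalling (7 of 20), 0.01 for Notch and Hedgehog signalling (11 of 22) and 0.01 for growth factors and receptors (16 of 28). Hypoxia and glycolysis genes were positive in 9 of 16 cases (median 0.06), with 0.33 (SE 0.23) for the glucose transporter Slc2a1. Heat shock genes were positive in 5 of 9 cases, with 0.42 (SE 0.17) for the chaperone Hsph1. Lipid and sterol synthesis genes were positive in 7 of 12 cases, with -0.27 (SE 0.12) for the sterol enzyme Hmgcs1. Immediate early genes were positive in 7 of 15 cases, with -0.20 (SE 0.09) for Jun. Medians of the remaining lists were 0.08 for MYC and ribosome biogenesis (10 of 15 positive), 0.04 for Polycomb and DNA methylation (9 of 14), 0.01 for angiogenic factors (8 of 13), 0.00 for the TNF and NF-kB response (8 of 16), -0.02 for mast cells (4 of 12), 0.02 for B and plasma cells (6 of 10) and 0.01 for erythroid cells (2 of 3). Adipose genes had 0.01 (6 of 10), epididymis genes 0.05 (4 of 6), urothelium genes -0.06 (1 of 8) and genes of autonomic neurons and glia -0.08 (1 of 8). Without T9 and T10 the medians turned to -0.03 for TGF-beta and BMP signalling (8 positive), -0.01 for Notch and Hedgehog signalling (10), -0.01 for growth factors and receptors (11), -0.02 for hypoxia and glycolysis (6), -0.0021 for heat shock (4), -0.09 for lipid and sterol synthesis (4), -0.01 for Polycomb and DNA methylation (6), -0.09 for adipose genes (2) and 0.05 for mast cells (8). B and plasma cell genes had 0.18 there (7 positive).

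The spread between animals was smaller in late than in early tumours, and the size of this gap depended on few early arrays. The median SD between animals was 0.19 log2 units in late and 0.25 in early tumours, and 74.8% of probe sets had the smaller SD in the late group. The median log2 ratio of the SD, late over early, was -0.46. It ran from -0.57 to -0.26 with single arrays left out, and was -0.26 without T10. It was -0.09 without T9 and T10 (55.5% of probe sets smaller in late), and 0.05 without T9, T10 and T13 (47.3%). All of these are early arrays far out on the first component, and the late array T3, level with T13 there, was kept. Leaving out such arrays from the early group alone narrows its spread, so these values cannot show whether the ages differ in spread. Atf4 (SD 0.15 late and 0.82 early), Prim1 (0.11 and 0.54) and Sox2 (0.13 and 0.51) were among the genes with the narrower late range. No test of the spread was made.

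**Figure D4:**
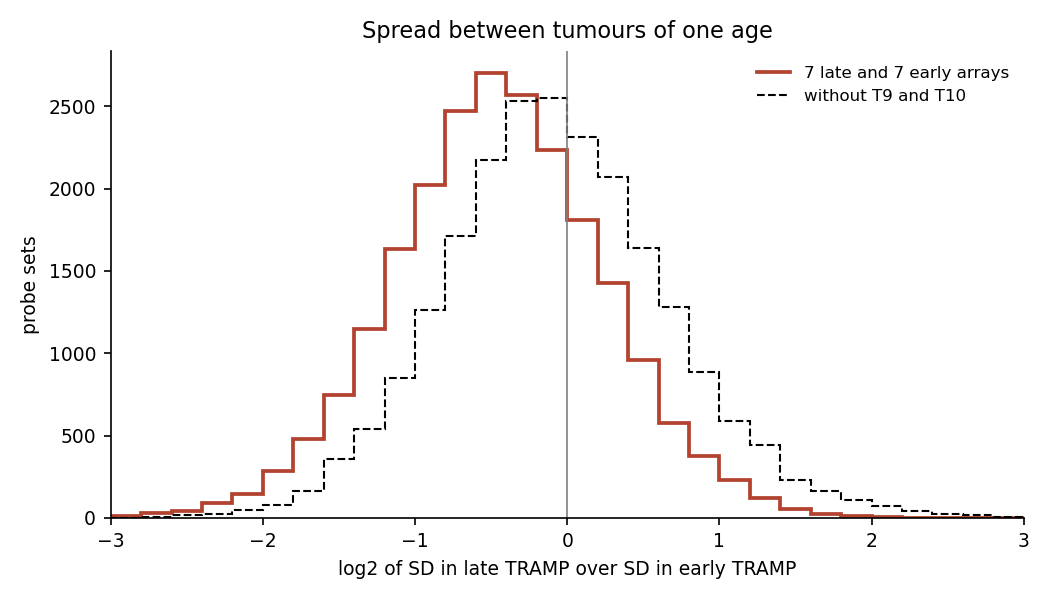
Number of probe sets by the log2 ratio of the SD between late TRAMP tumours over the SD between early TRAMP tumours, with all 14 arrays (red) and without T9 and T10 (dashed). The bulk lies left of 0 with all arrays, at a median of -0.46, and near 0 without the pair, at a median of -0.09.

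The age differences were set beside those of SPARC-null TRAMP, whose 15 arrays are other animals. No probe set was called for an age difference in TRAMP unlike the one in SPARC-null TRAMP (limma interaction, 0 called, 0%, lowest adjusted p = 0.364, 858 at an unadjusted p under 0.05). The median SE of this interaction was 0.17 log2 units, so the lack of calls does not show equal age differences. Within SPARC-null TRAMP 0 probe sets were called between ages (limma, lowest adjusted p = 0.0679, against 0.927 in TRAMP). At an unadjusted p under 0.05 there were 4747 there, against 1063 in TRAMP. Of the 566 probe sets with a higher mean in late TRAMP at an unadjusted p under 0.05, 83.7% had a positive difference in SPARC-null TRAMP too, as 84.7% of the 497 with a lower mean had a negative one, against 68.2% of all probe sets with the same sign. Without T9 and T10 these shares were 44.2% and 52%, against 45.5% of all. The AUC was also higher in late than in early SPARC-null tumours (0.743 ± 0.0192, n = 9, against 0.724 ± 0.0219, n = 6, SD). With the AUC as a covariate the shares of the same sign were 76.6% and 75.9%, against 59.5% of all. Without arrays of AUC under 0.7 they were 67.4% and 70%, against 57.1% of all. Why signs were shared was not tested. The 10 named genes with ranges apart all had the same sign in SPARC-null TRAMP, with none called there, and 19 of the 20 genes of smallest p did. In OPN-null TRAMP 4 of the 10 and 8 of the 20 had the same sign, and in wild-type tissue 2 and 10. Over all probe sets the share with the same sign as in TRAMP was 42.5% in OPN-null TRAMP and 40.8% in wild-type tissue. Both sets of genes were chosen with T9 and T10 among the arrays. For Ercc3 the SPARC-null difference was -0.10 (SE 0.11), for Irf9 0.31 (SE 0.17) and for Pot1b 0.35 (SE 0.15). Skeletal muscle genes were negative in 15 of 15 cases there as well.

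Nontransgenic wild-type tissue was the reference for age without a tumour. Again 0 probe sets (0%) were called for an age difference in TRAMP unlike the one in wild-type tissue (limma interaction, lowest adjusted p = 0.852, 1095 at an unadjusted p under 0.05). The median SE of this interaction was 0.21 log2 units, so equal age differences are not shown here either. Prim1 differed by -0.10 (SE 0.35) between late and early wild-type tissue and Irf9 by -0.25 (SE 0.22), against 0.99 and 0.51 in TRAMP.

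OPN-null TRAMP was the group whose age differences departed from those of TRAMP. The interaction was called for 3539 probe sets (15.9%), 1613 more positive (7.26%) and 1926 more negative (8.67%) in TRAMP. In 98.9% of them the absolute age difference was larger in OPN-null tumours, with a median of 0.13 in TRAMP and 0.73 in OPN-null TRAMP. These probe sets were chosen by the interaction on the same arrays, and 0 were called between ages in TRAMP, so this share largely follows from the choice. Over all probe sets the median absolute age difference was 0.09 in TRAMP (median SE 0.12) and 0.24 in OPN-null TRAMP (median SE 0.16). The late OPN-null group held only 3 tumours, with an AUC of 0.708 ± 0.0216 (SD, n = 3), against 0.739 ± 0.00802 in early OPN-null tumours (SD, n = 6). With the AUC as a covariate the interaction was called for 2592 probe sets. The Neuroendocrine list had a median age difference of -0.01 in TRAMP and 1.07 in OPN-null TRAMP, with 13 of 23 genes more negative and 1 more positive in TRAMP by the interaction. Luminal secretory genes were more positive in TRAMP in 12 of 22 cases, epithelial adhesion genes in 13 of 16 and unfolded protein response genes in 11 of 16. G2 and mitosis genes were more negative in TRAMP in 20 of 27 cases. Ube2c differed by 0.50 between ages in TRAMP and by 2.06 in OPN-null TRAMP (interaction -1.56, SE 0.32, limma adjusted p = 0.000802), and Cenpa by 0.31 and 1.34 (interaction -1.03, SE 0.18, adjusted p = 8.95e-05). For Prim1 the interaction was -0.01 (SE 0.49, adjusted p = 0.99). Of 19 interferon response genes 5 were more positive and 0 more negative in TRAMP. Irf9, which is not in that list, had an interaction of 1.41 (SE 0.29, adjusted p = 0.000637) from an age difference of 0.51 in TRAMP and -0.89 in OPN-null TRAMP. Sel1l3 had an interaction of 1.47 (SE 0.26, adjusted p = 7.86e-05).

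**Figure D5:**
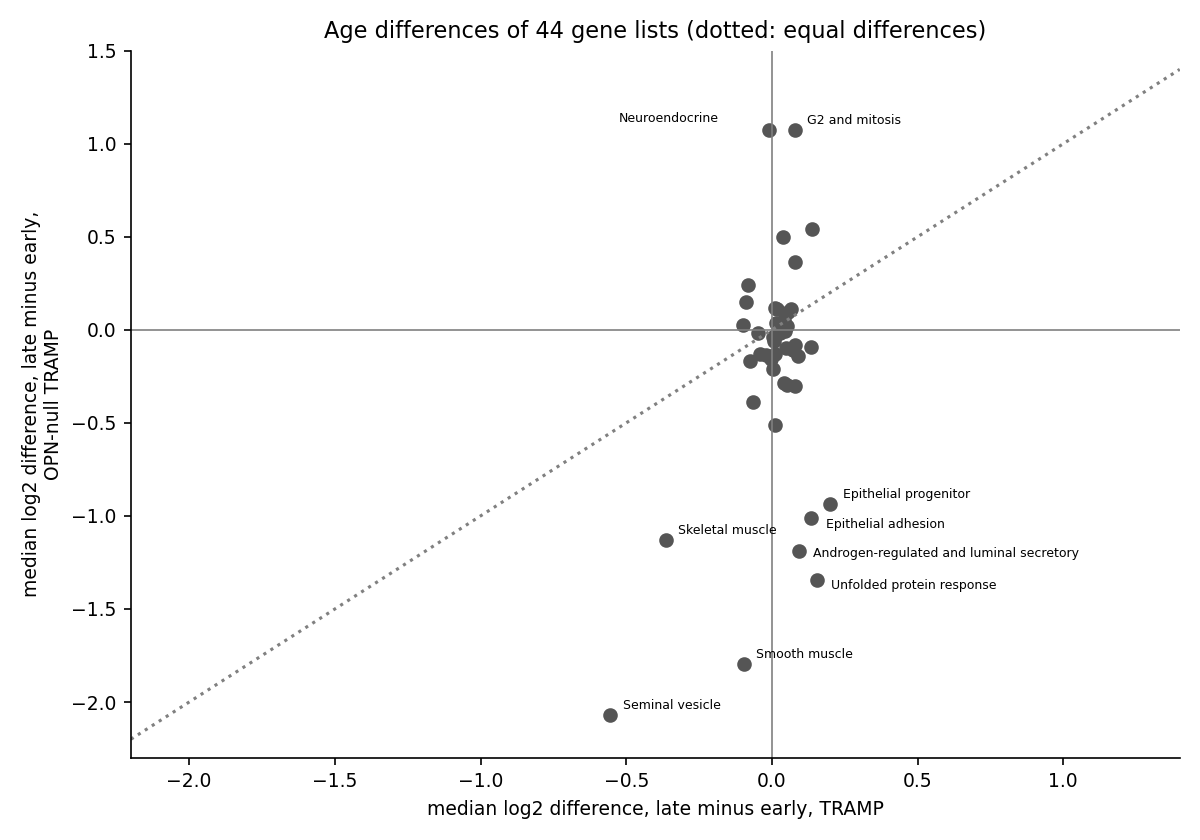
Median age difference, late minus early, of 44 gene lists in TRAMP (x axis) and OPN-null TRAMP (y axis), both in log2 units. The lists lie within 0.6 of 0 in TRAMP, while Neuroendocrine and G2 and mitosis lie above 1 in OPN-null TRAMP and the luminal secretory, epithelial adhesion, unfolded protein response, smooth muscle, skeletal muscle and seminal vesicle lists lie below -1.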

How the data were processed

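The authors hybridised total RNA to Clariom S arrays, and the deposited table holds log2 expression values per probe set. Per the submitters' processing notes they were made with RMA in oligo, whose versions the sources do not state; RMA compresses large differences at low signal. Of 29129 probe sets 6923 controls stayed out, which left 22206, with no filter on signal. Names came from the platform annotation, matched to a RefSeq table of GRCm38.p6, which altered 0 symbols; 19572 probe sets had 1 symbol and 2634 none. The gene lists hold 730 genes, of which 663 were measured and 67 have no named probe set. Spp1, the OPN gene, is among those without one.

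One mean per group was fitted to the 38 transgenic arrays with limma 3.58.1 in R 4.3.3 (lmFit, eBayes). The wild-type interaction used 67 arrays, with a weight of 1.11 for transgenic and 0.87 for nontransgenic arrays. P-values were adjusted by Benjamini-Hochberg over all 22206 probe sets. One array whose genotype label and animal code disagree was left out. Scripts were tested on simulated data. Animals have codes of their own; extraction and hybridisation batches are not stated. The number of arrays limits the precision.

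The members and lists were chosen with earlier results of these data known. Named genes were Sparc, the 10 smallest p each way, up to 4 genes per list, the genes of largest SD within an age and the largest interactions; Pbsn, Mki67, Mcm6, Mrc1 and the genes with ranges apart were chosen after their values were seen. Where a gene has several probe sets, the one with the highest mean was used.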

Additional observations from a re-analysis of the deposited data

Results flagged for a closer look

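In 188 groups of 7 values, the highest or lowest tumour stood apart from the nearest other in 14 cases, by Dixon's ratio at its 95% critical value, 11 of them in late and 3 in early tumours. Chance flags about 1 in 20 groups that are chosen without regard to their values. Many of these genes were named for their values, such as a large SD within an age, so the count cannot be judged against that share. Among late tumours, T4 was the lowest for Pbsn (7.04 log2 units) and Ube2c (7.6), T5 the lowest for Mcm2 (7.78) and the highest for Slc25a21 (5.76), and T6 the highest for the seminal vesicle genes Sva (10.84) and Svs6 (11.67). T2 was the highest for Paxx (5.85) and the lowest for Thbs2 (6.22). T3 was the highest for Cdh1 (8.69), and T7 the highest for Zfyve26 (8.32) and the lowest for C1qa (5.8). Among early tumours, T10 was the lowest for Tex261 (6.39) and the highest for Cyp3a41b (4.17), and T9 the lowest for Phlda3 (4.33).

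The age difference in TRAMP differed from that in OPN-null TRAMP for 3539 probe sets (limma interaction). The largest called values, TRAMP minus OPN-null, were 7.95 for Svs5, 6.35 for Pbsn, 5.74 for Pigr, 5.38 for Tspan1 and 5.24 for Pate14, and -5.22 for Slc25a21, -4.44 for Ipw, -4.30 for Elavl4, -4.21 for Ccn3 and -3.97 for Elavl3. They rest on 3 late OPN-null tumours.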

How the results depend on the processing

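The count of probe sets called between late and early TRAMP was 0 under every setting run, as were the counts for the SPARC-null and wild-type interactions; the lowest adjusted p of the first ran from 0.358 to 1. The OPN interaction ran from 2554 probe sets (without T9 and T10, a setting chosen after seeing the data) to 3617 (arrays re-centred), and from 2930 to 4197 with single arrays left out. The SV40 difference was 0.578 with the median of the probe sets (exact permutation p = 0.0332), 0.406 without arrays of AUC under 0.7 (exact p = 0.1) and 0.358 to 0.588 with single arrays left out (exact p 0.0198 to 0.104). Of 2121 alternative values for 93 genes, 28 turned sign and 0 became called. With a weight per array, Scd1 was -0.253, Sva 0.303 and Svs6 0.432. Pbsn was -0.179 without arrays of AUC under 0.7. Without T9 and T10, Pbsn was -0.304, Scd1 -0.17, Prol1 0.06, Elavl4 0.016 and Tspan1 -0.054. With single arrays left out, Pbsn ran from -0.179 to 0.696, Sva from -1.924 (without T6) to 0.307 (without T13), Svs6 from -1.631 (without T6) to 0.299 (without T13), Prol1 from -0.89 to 0.527, Smr2 from -1.161 to 0.002, Slc25a21 from -0.113 (without T5) to 0.246, Ipw from -0.102 (without T5) to 0.296, Elavl4 from -0.156 to 0.017 and Ccn3 from -0.049 (without T5) to 0.423. The cause was not tested. No paired analysis was possible because the replicate numbers are names of different animals. The number of arrays and, for Myl2, Cyp3a41b and other named genes, a signal low on the scale limit the precision. The median of the negative control means was 5.4. Among others, Ube2u, Pmp2, Zcchc10, Cdkn2a, Elavl3, Phlda3, Arsi and Rbl1 had late and early means below it, and Pot1b an early mean below it.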
